A study of Mus musculus with 4 samples.

Results

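Voltage-gated sodium and calcium channel genes were followed over the cell classes and neuron groups of the aged mouse hypothalamus. The genes were taken by symbol, as every symbol that starts with Cacn or with Scn and a digit and that reached at least 10 unique molecular identifiers (UMIs, counted RNA molecules) summed over the 2 libraries. Of 40 matching symbols among 32285 gene identifiers, 34 qualified, and 17301 genes of any kind reached that sum. They were 7 of 10 sodium channel pore-forming subunits, 3 of 4 sodium channel beta subunits, 9 of 10 calcium channel pore-forming subunits, all 4 alpha2delta subunits, all 4 calcium channel beta subunits and 7 of 8 Cacng genes. Cacng1 stood just inside with 10 UMIs, and Cacna1s with 9 and Scn11a with 8 stood just outside. Scn4a, Scn4b, Scn10a and Cacng6, with 2 to 4 UMIs, were the others that did not qualify. Tests were made on the 31 members with at least 50 UMIs. Cacna1f, Cacna2d4 and Cacng1, with 21, 31 and 10 UMIs, are given by their counts.

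Nuclei came from frozen whole hypothalamus of mice about 18 months old, and the study set out to compare control animals with animals that received hypothalamic stem cells made from human pluripotent stem cells. Of the barcodes in the matrices labelled control replicates 1 and 2, 99.7% in each case were also in a matrix labelled transplanted, so the labels hold 1 set of nuclei per replicate. The results below therefore use the control-labelled matrices as library A (4008 nuclei, 8779880 UMIs, median 1813 per nucleus) and library B (2150 nuclei, 4924563 UMIs, median 2049), and no effect of transplantation is estimated. Libraries A and B had 4 barcodes in common. The title of library A joins 2 animal codes and that of library B has 1, and whether animals were pooled is not stated. Since the library is a term in the fit, the p-values measure only how class or group differences varied between these 2 libraries. The labels used here give neither strain nor sex.

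Sodium channels of this family carry the fast inward current that starts and spreads the action potential. Their pore-forming subunits are the Scn genes ending in "a", and the single-pass beta subunits, ending in "b", modify gating and adhesion. Calcium channels turn depolarisation into calcium entry. The Cacna1 genes encode their pores (L-type, P/Q-type, N-type, R-type and T-type), while the alpha2delta (Cacna2d) and cytosolic beta (Cacnb) subunits set how many channels reach the membrane. Most Cacng proteins escort AMPA-type glutamate receptors. In the hypothalamus these channels are known for pacing neurosecretory and clock neurons, and Scn7a, which encodes a sodium-sensing relative with little voltage gating, is known from glia that border the ventricles.

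Clusters were made without any channel gene and named from cell type markers, so no member helped to define a class. Every class name stands for a likeness (neuron-like, for example), not for a proven type. Neurons made up 3024 nuclei of library A and 1464 of library B. There were 302 and 200 astrocytes, 371 and 284 oligodendrocytes, 134 and 72 oligodendrocyte precursors, 115 and 58 tanycytes and 58 and 46 microglia. Depth differed between classes: the median nucleus held 2268 and 2633 UMIs in neurons against 650.5 to 1196 in the other classes. Levels are CPM, the UMIs of a gene scaled to the total of a summed class in each library, read within a gene and never between genes. The summed level of 26 neuron markers in the other classes was 5.18% to 20.02% of that in neurons. The sources used here do not say how introns and strand were treated in counting, so a gene and an overlapping antisense gene cannot be told apart.

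Neurons held most of the channel RNA. Of the UMIs of the 31 tested members, 88810 were in neurons and 2934 in the 5 other classes together, or 96.8% in neurons against 89.67% for the UMIs of all genes. In edgeR's quasi-likelihood test of neurons against the average of the other classes, 30 of 31 members were higher, where 35.8% of all 13054 tested genes were. Their median log2 difference was 3.84, against 0.79 over all genes tested. These medians include genes with a class at 0 UMIs, whose fitted value depends on the small count edgeR adds, so no fitted value is given for such a gene alone. Cacng5 did not pass, with 5.16 and 10.1 CPM in neurons of libraries A and B and 8.07 and 17.2 CPM in astrocytes. Only 17 of the 31 had at least 50 UMIs outside neurons, so the other 14 entered the test mainly through their neuronal level. A higher call is also no statement of exclusivity: 21 of 31 had their highest mean level in neurons. With nuclei of at least 1000 UMIs, where microglia were not among the classes, 25 of the 30 higher calls still passed in edgeR.

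**Figure D1:**
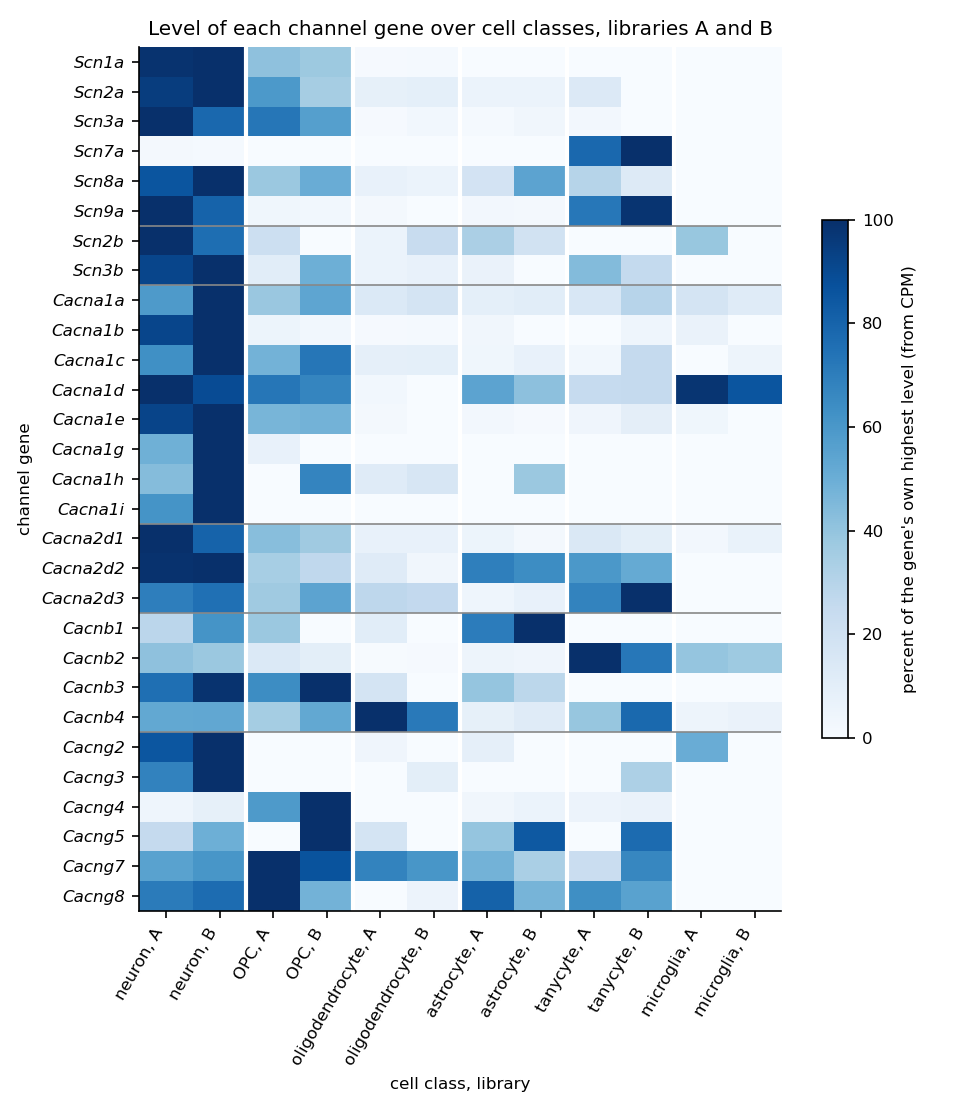
Heat map of the tested channel genes that are described here (rows, grouped by subunit family) over 6 cell classes and libraries A and B (columns). Colour is the level in CPM as a percent of the gene's own highest column. Most rows are darkest in neurons, Scn7a in tanycytes, Cacng4 in oligodendrocyte precursors (OPC) and Cacnb4 in oligodendrocytes of library A.

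Among the pore-forming sodium channels, Scn2a, a main channel of axons, stood at 441 and 466 CPM in neurons of libraries A and B. In oligodendrocyte precursors it stood at 275 and 163 CPM, and in every other class at no more than 63.2 CPM. Scn1a, the channel lost in Dravet epilepsy, stood at 345 and 350 CPM in neurons and at 144 and 132 CPM in oligodendrocyte precursors. It had 0 UMIs in astrocytes, tanycytes and microglia of both libraries, so that neurons were at least 28.5-fold and 20.4-fold above astrocytes. Scn3a, best known from the developing brain, stood at 342 and 268 CPM in neurons and at 249 and 193 CPM in oligodendrocyte precursors. Both libraries therefore placed these channels in the same order over classes, neurons first and precursors second. Scn8a, the channel of nodes of Ranvier, stood at 207 and 242 CPM in neurons, with 91.7 and 122 CPM in precursors and 44.4 and 132 CPM in astrocytes. The libraries did not agree on whether Scn8a was higher in precursors or in astrocytes.

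Scn7a and its chromosomal neighbour Scn9a, the channel of pain-sensing neurons, did not follow that order. Scn7a stood at 1182 and 1509 CPM in tanycytes, the glia of the third ventricle's floor, and at 24.7 and 19.9 CPM in neurons. No UMI of Scn7a was found in astrocytes, oligodendrocytes, oligodendrocyte precursors or microglia of either library. Tanycytes were 47.9-fold and 75.9-fold above neurons and at least 97.6-fold and 87.9-fold above astrocytes, and the class passed edgeR's test with an adjusted p of 2.13e-148. Scn9a stood at 244 and 330 CPM in tanycytes and at 335 and 270 CPM in neurons, so these classes overlapped, and at no more than 13.1 CPM elsewhere (adjusted p 2.76e-17 for tanycytes in the same test). In the RefSeq gene order of chromosome 2 (GRCm38.p6), Scn1a, Scn9a and Scn7a follow each other as protein-coding genes, yet Scn1a had 0 UMIs in tanycytes.

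The 250 bases upstream of the RefSeq start of these 3 neighbours are shown because they share a chromosomal stretch and differ over classes. They are written 5′ to 3′ on the gene's strand (minus), with each CG dinucleotide in capitals.
Scn7a (chr2:66784911-66785160): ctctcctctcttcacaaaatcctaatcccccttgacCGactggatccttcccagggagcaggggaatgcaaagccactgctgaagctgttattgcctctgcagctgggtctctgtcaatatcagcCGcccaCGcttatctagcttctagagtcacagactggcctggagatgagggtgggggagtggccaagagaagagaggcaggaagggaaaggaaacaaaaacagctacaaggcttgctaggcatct
Scn9a (chr2:66634963-66635212): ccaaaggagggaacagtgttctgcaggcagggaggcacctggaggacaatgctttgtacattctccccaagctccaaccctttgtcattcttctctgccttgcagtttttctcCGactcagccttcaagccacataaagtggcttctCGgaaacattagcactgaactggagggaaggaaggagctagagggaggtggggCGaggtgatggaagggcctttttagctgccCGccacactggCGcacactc
Scn1a (chr2:66440838-66441087): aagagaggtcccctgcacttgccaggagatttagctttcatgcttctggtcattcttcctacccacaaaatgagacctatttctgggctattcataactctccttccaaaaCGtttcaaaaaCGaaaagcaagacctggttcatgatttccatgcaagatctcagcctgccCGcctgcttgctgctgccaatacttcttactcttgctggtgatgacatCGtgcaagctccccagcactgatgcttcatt
The windows held 3, 5 and 4 CG dinucleotides, against a median of 6 over the 32841 windows in the table and of 9 over the 35 windows of the 24 members that have one. The homeodomain core TAATTA, searched on both strands, was in 0 of the 35 member windows and in 4.84% of all windows. The GC box GGGCGG, searched likewise, was in the Scn7a window once and not in the other pair, and in 32.75% of all windows. These matches are letters in a window and say nothing of binding.

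Tanycytes were called higher for 4 of 31 members, Scn7a, Scn9a, Cacnb2 and Cacna2d3, where 6.91% of all tested genes were higher. Cacnb2, a calcium channel beta subunit, stood at 2012 and 1461 CPM in tanycytes, 827 and 765 CPM in neurons, 794 and 753 CPM in microglia and 10.9 and 19.0 CPM in oligodendrocytes. Its log2 difference in tanycytes was 3.05 (SE 0.17) with an edgeR adjusted p of 1.79e-65. Cacna2d3, an alpha2delta subunit, stood at 469 and 691 CPM in tanycytes and at 482 and 520 CPM in neurons, which overlap, with 0 UMIs in microglia (edgeR adjusted p 8.57e-13). With nuclei of at least 1000 UMIs, Scn7a, Scn9a and Cacnb2 still passed in edgeR for tanycytes and Cacna2d3 did not. The class was not pure by its markers. Against 17576 and 14975 CPM for 24 tanycyte markers, 31 astrocyte markers summed to 6911 and 6521 CPM and 26 neuron markers to 6857 and 4793 CPM. Lower sums were those of 19 ependymal markers (2508 and 1823 CPM), 21 endothelial markers (523 and 1603 CPM) and 5 erythroid markers (81.2 and 2703 CPM). The vascular and erythroid lists were thus higher in library B. In the 68 and 24 nuclei of the class without a UMI of an endothelial, mural or fibroblast marker, Scn7a stood at 1092 and 1834 CPM and Cacnb2 at 2150 and 1877 CPM, close to their levels in the whole class.

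A finer clustering, again without channel genes, split the class in 2, and this split was looked at after the values were seen. The smaller subset, led by Fndc3c1, Il1rapl2 and Mctp1, had 30 and 18 nuclei. Scn7a stood there at 3313 and 3451 CPM, from 130 and 91 UMIs in 23 and 16 nuclei. The larger subset, led by Sgcz, Vcan and Slc35f1, had 85 and 40 nuclei and held 1 and 5 Scn7a UMIs, each set in a single nucleus. Nearly all Scn7a RNA of the class was therefore in the smaller subset. Scn9a stood at 484 and 455 CPM in the smaller subset and at 112 and 241 CPM in the larger. Cacnb4 stood at 433 and 796 CPM against 55.9 and 80.5 CPM. Cacnb2 was high in both, at 1860 and 1365 CPM in the smaller subset and 2095 and 1529 CPM in the larger. The smaller subset held the higher tanycyte marker sum (26196 and 23625 CPM against 12851 and 8855 CPM) and the lower ependymal sum (586 and 683 CPM against 3562 and 2630 CPM). Its astrocyte marker sum was lower as well, at 3848 and 5347 CPM against 8590 and 7352 CPM. Its neuron marker sum, 12589 and 8532 CPM against 3715 and 2147 CPM, was higher. The part of any of these markers in the levels was not tested.

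**Figure D2:**
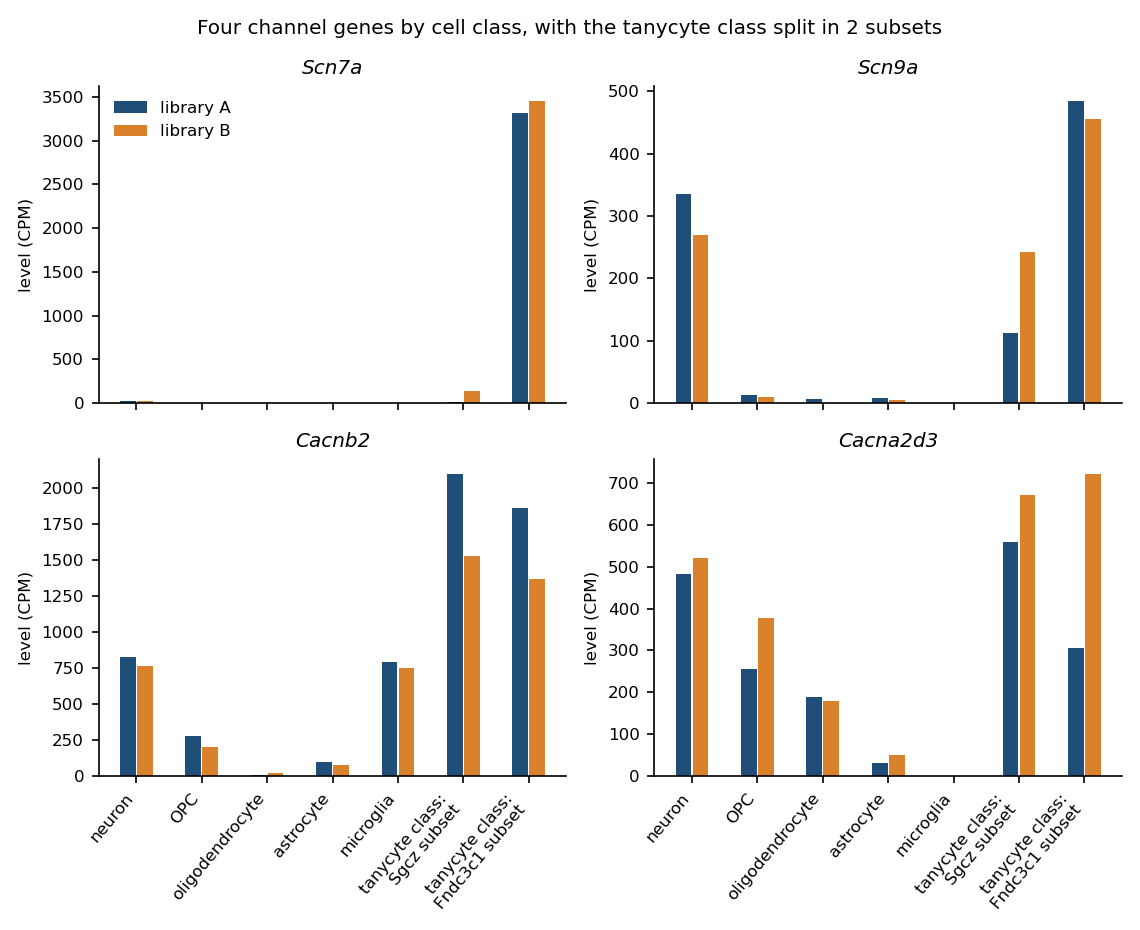
Bars give the level in CPM of Scn7a, Scn9a, Cacnb2 and Cacna2d3 in each cell class and in the 2 subsets of the tanycyte class, for libraries A and B, each panel with its own axis from 0. Scn7a stands at 3313 and 3451 CPM in the Fndc3c1 subset, while Cacnb2 is high in both subsets.

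Oligodendrocyte precursors, the dividing glia that receive synapses and carry voltage-gated currents, were called higher for 13 of 31 members, where 9.92% of all tested genes were higher. With nuclei of at least 1000 UMIs only 5 of these 13 still passed in edgeR (Cacna1c, Cacna1e, Cacng4, Scn1a and Scn3a), and Scn8a turned to a log2 difference of -0.10. The median log2 difference of the members was 1.89, against 0.25 over all genes tested. Besides Scn1a, Scn2a, Scn3a and Scn8a these were Cacna1a, Cacna1c, Cacna1d, Cacna1e, Cacna2d1, Cacna2d3, Cacng4, Cacng7 and Cacng8. In both libraries 10 members had their highest level outside neurons in precursors, and 11 reached at least 50% of their neuronal level there. The same counts were not made over all genes, so they only describe the members. Cacna1c, the L-type pore shared with heart and smooth muscle, stood at 301 and 458 CPM in precursors and at 397 and 628 CPM in neurons. Its log2 difference in precursors was 2.76 (SE 0.30, edgeR adjusted p 3.95e-18). Cacna1e, the R-type pore, stood at 308 and 316 CPM in precursors and at 609 and 662 CPM in neurons, with no more than 62.9 CPM elsewhere (log2 difference in precursors 3.54, SE 0.36, edgeR adjusted p 3.27e-21). Cacna1b, the N-type pore of presynaptic terminals, stood apart from these at 19.6 and 10.2 CPM in precursors and 332 and 363 CPM in neurons. Scn9a did as well, at 13.1 and 10.2 CPM.

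Cacng4, an AMPA receptor partner, was the member for which precursors stood farthest above neurons, at 282 and 479 CPM against 21.3 and 40.2 CPM. That is 13.2-fold and 11.9-fold, and at least 25.8-fold and 33.6-fold above oligodendrocytes, which had 0 UMIs (edgeR adjusted p 8.2e-44). Cacng7 stood at 118 and 102 CPM in precursors and at 65.3 and 71.3 CPM in neurons, and was called in both. Beside these levels, Syt1, a synaptic vesicle gene that defines neurons, stood in precursors at 3.72% and 1.68% of its neuronal level, Snap25 at 36.7% and 37.9% and Celf4 at 12.8% and 13.01%. Cacna1c stood there at 76.0% and 73.0% and Scn3a at 72.7% and 72.3% of its neuronal level, and Cacna1b at 5.93% and 2.81%. The part of neuronal RNA in the precursor levels was not tested.

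**Figure D3:**
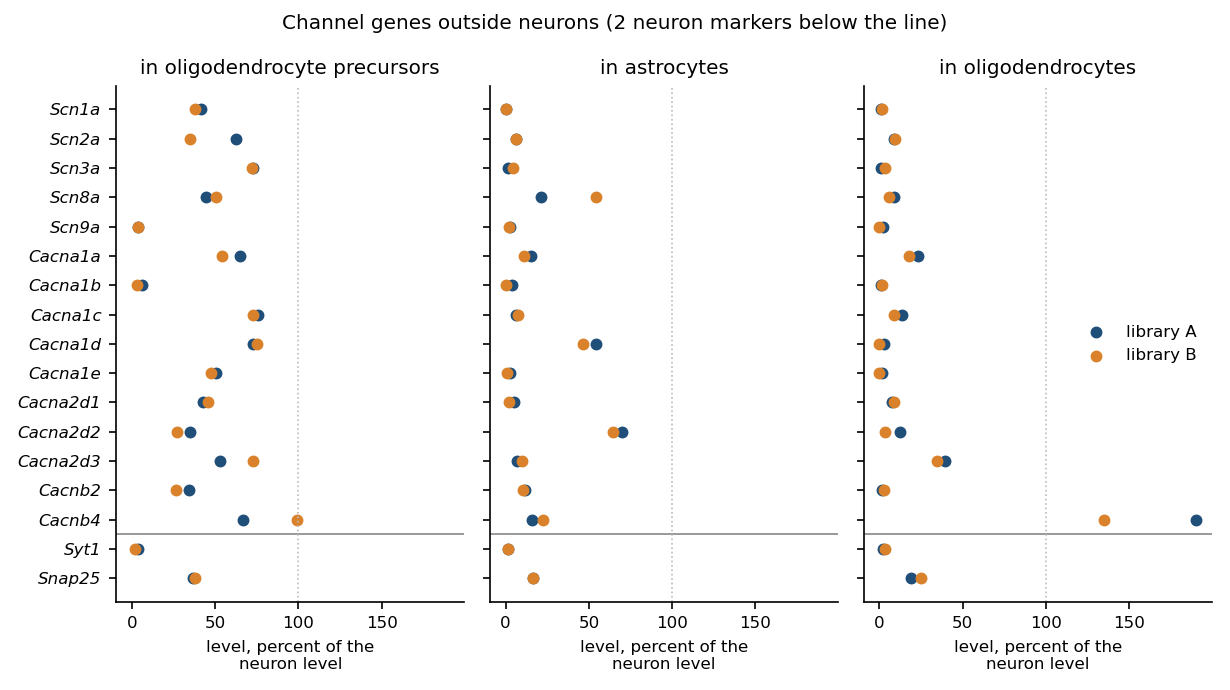
Points give, for the 15 members with at least 100 CPM in neurons of both libraries and for the neuron markers Syt1 and Snap25, the level in 3 glial classes as a percent of the neuron level of the same library. In oligodendrocyte precursors Scn3a, Cacna1c and Cacna1d lie above 70%, Cacna1b and Scn9a below 6%, and in oligodendrocytes Cacnb4 lies above 100%.

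Of the genes called higher in precursors, Cacna1d and Cacna1e were called lower in mature oligodendrocytes, while Cacna2d3 and Cacng7 were called higher in both. In all, oligodendrocytes were called higher for 3 members, where 12.3% of all tested genes were, and lower for 3, where 4.51% were. Cacna1d, the low-voltage L-type pore, stood at 18.2 and 0 CPM there (5 and 0 UMIs), against 452 and 417 CPM in precursors and 622 and 556 CPM in neurons. Its log2 difference was -4.85 (SE 0.41, edgeR adjusted p 3.4e-30), and Cacnb2 (-4.73, SE 0.37, adjusted p 1.18e-35) and Cacna1e, with 3 and 0 UMIs, were also lower. Cacnb4, a beta subunit whose loss gives the lethargic mouse, stood at 484 and 346 CPM in oligodendrocytes against 254 and 257 CPM in neurons, 1.90-fold and 1.35-fold. In tanycytes Cacnb4 stood at 189 and 377 CPM, so the libraries did not agree on whether oligodendrocytes or tanycytes were higher. Its log2 difference in oligodendrocytes was 2.22 (SE 0.22, edgeR adjusted p 2.05e-23). Cacna2d3 (189 and 180 CPM) and Cacng7 (80.1 and 71.2 CPM) were the others called higher. With nuclei of at least 1000 UMIs, the directions of Cacna1d, Cacna1e and Cacnb2 in oligodendrocytes turned, to log2 differences of 0.42, 2.29 and 0.27. Of these only Cacna1e passed in edgeR (adjusted p 3.48e-15), against 0.219 for Cacna1d and 0.483 for Cacnb2. In that setting Syt1 stood in the class at 1169 and 1503 CPM, against 40.04 and 61.7 CPM with all nuclei, and microglia were not among the classes.

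Astrocytes were called higher for 5 members, where 12.1% of all tested genes were, and lower for 4, where 2.78% were. Cacna1d stood at 339 and 257 CPM in astrocytes (log2 difference 0.93, SE 0.23, edgeR adjusted p 0.0005). Cacna2d2, an alpha2delta subunit that binds gabapentin, stood at 105 and 97.2 CPM there and at 150 and 151 CPM in neurons, with 0 UMIs in microglia. Cacnb1, the beta subunit of skeletal muscle, stood at 24.2 and 34.3 CPM from 6 UMIs in each library, above the 9.69 and 21.1 CPM of neurons. Cacng8 and Scn8a were the other higher calls. With nuclei of at least 1000 UMIs 0 of these 5 passed in edgeR and 1 had an unadjusted p under 0.05, and the directions of Cacna1d (-0.25) and Scn8a (-0.078) turned. The 4 lower calls below still passed in that setting. There too microglia were not among the classes averaged, and oligodendrocytes held the Syt1 levels given above. The value of Scn8a also changed sign without control replicate 2 (-0.14). Microglia held 0 UMIs of Scn8a, so that value depends on the small count added to 0 and settles no direction. Cacna1a, Cacna2d1, Cacnb2 and Cacnb4 were lower, with 40.4 to 96.9 CPM in library A and 17.2 to 80.1 CPM for B.

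Microglia, the immune cells of the brain, were called higher for 2 members, where 4.37% of all tested genes were, and lower for 9, where 7.52% were. Cacna1d stood at 607 and 534 CPM in microglia, close to the 622 and 556 CPM of neurons (log2 difference 0.99, SE 0.32, edgeR adjusted p 0.0199). Cacnb2 stood at 794 and 753 CPM, against 827 and 765 CPM in neurons (log2 difference 1.05, SE 0.28, edgeR adjusted p 0.00333). For both genes the neuronal and microglial levels differed by less than the gap between the libraries in neurons. Another L-type pore, Cacna1c, had 0 and 1 UMIs in microglia. Of the 31 tested members 20 had 0 UMIs in microglia, which at this depth allows up to 70.1 and 94.2 CPM. Neuron markers summed there to 5.18% and 6.24% of their neuronal level, and the part of neuronal RNA in the levels of Cacna1d and Cacnb2 was not tested.

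The other calcium channel pores had their highest mean level in neurons, though Cacna1a was also called higher in precursors. Cacna1a, the P/Q-type pore of fast synapses, stood at 312 and 529 CPM in neurons (log2 difference 2.33, SE 0.15, edgeR adjusted p 3.21e-50) and at 203 and 285 CPM in precursors. The T-type pores Cacna1g, Cacna1h and Cacna1i, which carry low-threshold bursts, stood at 45.2 and 92.4, 13.1 and 30.2, and 27.4 and 44.7 CPM in neurons. Outside neurons they had 1, 6 and 0 UMIs in all. Cacna1f, the pore of retinal photoreceptors, had 21 UMIs, all in neurons. Among auxiliary subunits, Cacna2d1, the main gabapentin target, stood at 937 and 753 CPM in neurons and 399 and 346 CPM in precursors (log2 difference in neurons 3.64, SE 0.15, edgeR adjusted p 1.06e-123). Scn3b and Scn2b stood at 56.6 and 61.8 and at 60.2 and 45.6 CPM in neurons.

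Genes known to work with these channels were read from lists drawn from textbook knowledge with earlier results of these data in view. Of 14 sodium channel partners and axon initial segment genes 12 were higher in neurons by the same edgeR test, and 7 were higher and 2 lower in oligodendrocyte precursors. Of all tested genes 35.8% were higher and 6.25% lower in neurons, and 9.92% were higher and 1.23% lower in precursors, and the counts below are against the same shares. Fgf14, which binds the tails of sodium channels, stood at 4082 and 3869 CPM in neurons and 2475 and 2383 CPM in precursors. Ank3, the scaffold of the initial segment, stood at 1905 and 1829 CPM in neurons and 904 and 916 CPM in precursors. In oligodendrocytes Ank3 was above precursors, at 1703 and 1429 CPM, and was also called higher. All 4 tested genes of the sodium leak channel complex (Nalcn, Unc79, Unc80 and Fam155a) were higher in both neurons and precursors, and lower in microglia. Of 14 release-site partners 14 were higher in neurons and 8 in precursors, with Rims1 at 883 and 954 CPM in neurons and 779 and 641 CPM in precursors. Of 13 calcium release channels, pumps and exchangers 11 were higher and 1 lower in neurons. The lower one was Itpr2, at 18.4 and 18.2 CPM in neurons against 607 and 534 CPM in microglia and 249 and 356 CPM in precursors. All 5 tested calcium-activated potassium channel genes were higher in neurons than the average of the other classes. Kcnn2 was nonetheless higher in astrocytes, at 468 and 469 CPM, than in neurons, at 196 and 235 CPM.

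Neurons fell into 15 groups, of which 10 had at least 20 nuclei in each library and were tested, each against the average of the other 9. They are called by leading genes and by transmitter: 5 GABA groups (Lef1, Meis2, Nfib, Vipr2 and Gal/Nts), 3 glutamate groups (Ebf2, Tanc1 and Hmcn2) and 2 mixed groups (Trh/Oxt and Rxfp1/Cartpt). Of 31 members 22 were called in at least 1 group, where 27.1% of the 12062 tested genes were. There were 32 higher and 18 lower calls among the 310 pairs of a member and a group. Without the library as a term in the fit these counts were 14 and 9. The Meis2 group was higher for 3 members and lower for 1 (3.98% and 0.796% of all tested genes), the Nfib group likewise for 3 and 1 (1.42% and 0.39%), and the Trh/Oxt group for 2 and 1 (3.38% and 0.216%). The Ebf2 group was higher for 2 (4.58%). The Lef1 group was higher for 1 and lower for 1 (1.59% and 0.307%), as was the Gal/Nts group (1.97% and 0.514%), and the Rxfp1/Cartpt group was higher for 1 and lower for 3 (2.92% and 2.64%). The other calls were in the Tanc1, Vipr2 and Hmcn2 groups. Members differed in how far they varied. Scn2a ran from 411 to 511 CPM over the 10 groups (mean of both libraries, a 1.24-fold range) and was called in none, and Scn8a, at 185 to 282 CPM, was called in none either. Cacna2d1 and Cacna2d3 had an 11.8-fold and a 13.5-fold range, the widest among the members with at least 100 CPM in neurons of both libraries.

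Of the alpha2delta genes, Cacna2d1 and Cacna2d3 differed widely between groups and Cacna2d2 less so, with a 3.43-fold range. Cacna2d1 stood at 1901 and 1537 CPM in the Hmcn2 group, 1513 and 1434 CPM in the Ebf2 group and 1066 and 884 CPM in the Tanc1 group, all glutamate. It stood at 177 and 114 CPM in the Nfib group and at 253 and 261 CPM in the Meis2 group. The Hmcn2 group was 10.7-fold and 13.4-fold above the Nfib group, and its log2 difference was 1.83 (SE 0.10, edgeR adjusted p 7.36e-22). Cacna2d3 stood at 797 and 1168 CPM in the Vipr2 group (log2 difference 1.08, SE 0.16, edgeR adjusted p 5.93e-07) and at 78.9 and 66.8 CPM in the Tanc1 group (-2.82, SE 0.23, adjusted p 9.31e-16). Cacna2d2 was lowest in the Hmcn2 group, at 67.6 and 55.7 CPM (log2 difference -1.24, SE 0.16, edgeR adjusted p 1.62e-08), where Cacna2d1 was highest. Across the 10 groups the mean levels of Cacna2d1 and Cacna2d3 had a Pearson correlation of -0.47 and a Spearman correlation of -0.65, a description over groups that share 2 libraries.

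The upstream windows of Cacna2d1 and Cacna2d3 are shown as a pair whose levels went opposite ways between transmitter classes, in the same notation, with plus and minus strand.
Cacna2d1 (chr5:15934441-15934690): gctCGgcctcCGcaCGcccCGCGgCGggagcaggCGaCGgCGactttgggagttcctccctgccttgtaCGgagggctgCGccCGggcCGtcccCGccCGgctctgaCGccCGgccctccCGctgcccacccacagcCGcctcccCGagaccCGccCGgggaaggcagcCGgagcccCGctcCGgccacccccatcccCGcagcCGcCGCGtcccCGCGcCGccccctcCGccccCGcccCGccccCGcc
Cacna2d3 (chr14:29721865-29722114): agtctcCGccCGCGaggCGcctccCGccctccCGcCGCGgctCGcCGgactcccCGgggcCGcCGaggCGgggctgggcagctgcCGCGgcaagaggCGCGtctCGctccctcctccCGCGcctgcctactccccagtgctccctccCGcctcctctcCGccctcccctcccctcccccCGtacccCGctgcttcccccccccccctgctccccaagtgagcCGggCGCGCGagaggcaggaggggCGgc
They held 36 and 30 CG dinucleotides, and 97.8% and 94.8% of all windows had no more. GGGCGG matched 6 and 4 times. The pair thus resembled each other in base composition and differed from the Scn7a stretch.

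**Figure D4:**
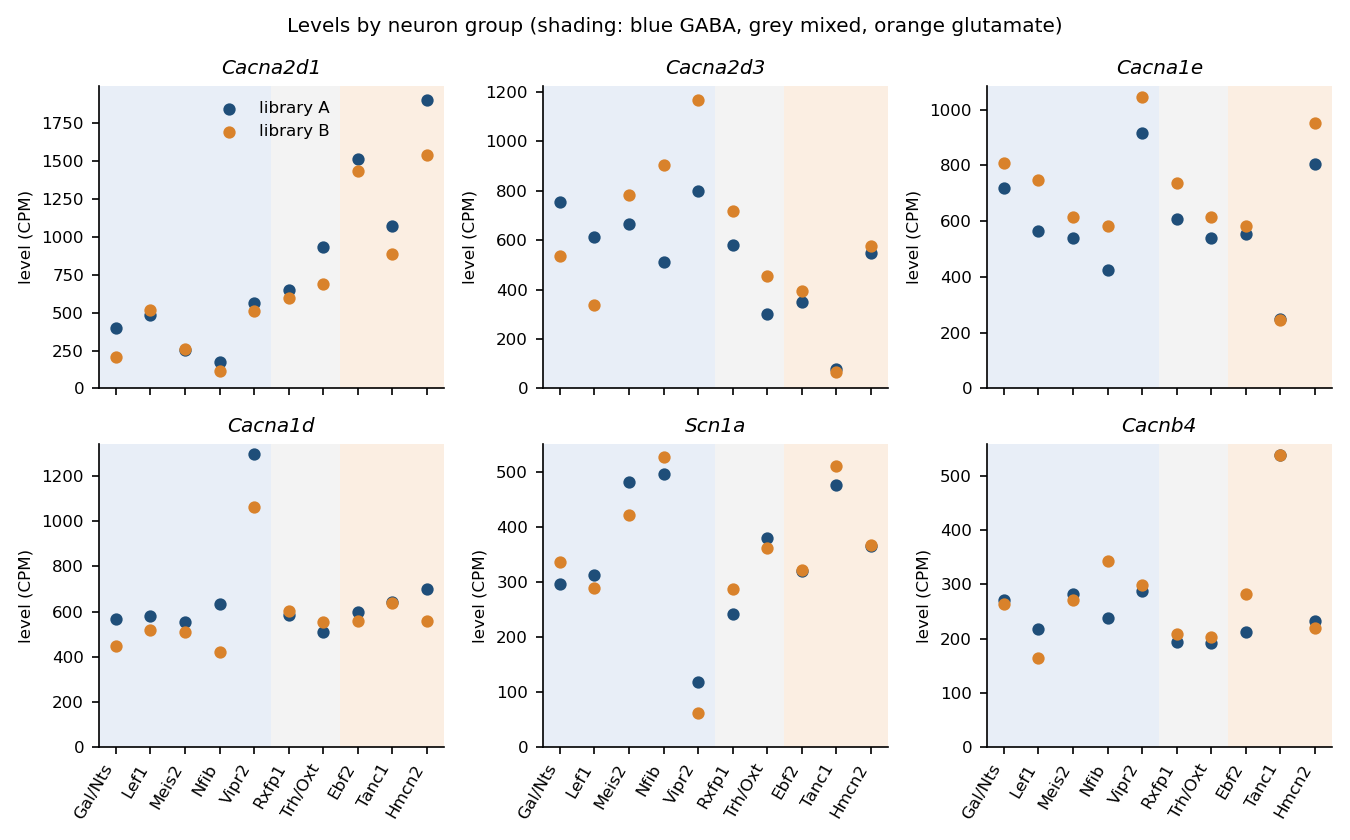
Points give the level in CPM of 6 members in each of the 10 tested neuron groups for libraries A and B, with groups ordered and shaded by transmitter (blue GABA, grey mixed, orange glutamate). Cacna2d1 is highest in the 3 glutamate groups, Cacna2d3 lowest in the Tanc1 group, and the Vipr2 group stands apart for Cacna1d (1297 and 1063 CPM) and Scn1a (119 and 61.5 CPM).

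The Vipr2 group, which also expressed Prok2 and Syt10 among its leading genes, was called higher for 6 members and lower for 5, where 4.34% and 4.64% of all tested genes were. Cacna1d stood there at 1297 and 1063 CPM, and at 423 to 702 CPM in the other 9 tested groups (log2 difference 1.02, SE 0.12, edgeR adjusted p 8.85e-10). Cacna1e stood at 916 and 1045 CPM (0.72, SE 0.12, edgeR adjusted p 5.96e-06) and Cacnb2 at 1203 and 931 CPM (0.41, SE 0.12, edgeR adjusted p 0.0206). Of the sodium channel genes described here, Scn1a and Scn3a were called lower there. Scn8a and Scn3b instead had their highest mean level of the 10 tested groups there (282 and 82.4 CPM, means of both libraries), without a higher call. Scn1a stood at 119 and 61.5 CPM, the lowest of the 10 groups (log2 difference -1.96, SE 0.22, edgeR adjusted p 3.83e-10), and the Nfib group was 4.17-fold and 8.55-fold above it. Scn3a stood at 223 and 149 CPM (-0.71, SE 0.19, edgeR adjusted p 0.00725), while Scn2a, at 450 and 439 CPM, was not called. Cacna1b stood at 213 and 263 CPM (-0.61, SE 0.17, edgeR adjusted p 0.0129), and Cacna1h had 0 UMIs.

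The Tanc1 group, a glutamate group also led by B230323A14Rik and Myo5b, was called higher for 7 members and lower for 4, where 7.04% and 6.21% of all tested genes were. Cacnb4 stood at 539 and 538 CPM there and at 164 to 343 CPM in the other 9 tested groups (log2 difference 1.29, SE 0.11, edgeR adjusted p 4.23e-14). Cacna1e was lowest there, at 249 and 247 CPM (-1.28, SE 0.13, edgeR adjusted p 1.07e-11), and the Vipr2 group was 3.68-fold and 4.22-fold above it. Scn1a stood at 475 and 510 CPM (0.79, SE 0.12, edgeR adjusted p 2.4e-07). Scn3b, a sodium channel beta subunit, stood at 16.1 and 3.93 CPM from 9 and 1 UMIs (-2.10, SE 0.37, edgeR adjusted p 1.56e-05). The T-type pore Cacna1i stood at 39.4 and 78.5 CPM (0.94, SE 0.28, edgeR adjusted p 0.0133) and was lowest in the Rxfp1/Cartpt group at 6.38 and 9.92 CPM. The Hmcn2 group was called higher for 6 members and lower for 1, where 7.49% and 2.01% of all tested genes were, with Cacna1e at 806 and 952 CPM (0.66, SE 0.10, edgeR adjusted p 5.5e-07).

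Neuronal Scn9a and Scn7a were each called in 1 tested group. Scn9a stood at 621 and 451 CPM in the Rxfp1/Cartpt group and at 217 to 428 CPM in the other 9 tested groups (log2 difference 0.80, SE 0.12, edgeR adjusted p 7.71e-07), with library A above library B in all 10 groups. The smaller Npy group, not in that test, stood as high, at 517 and 553 CPM. Scn7a stood at 75.9 and 68.6 CPM in the Nfib group, against 0 to 39.6 CPM in the other 9 (1.90, SE 0.40, edgeR adjusted p 0.00175).

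As a set, GABA groups were lower than glutamate groups for 7 members and higher for 4, where 4.91% and 3.03% of all tested genes were. The count of 7 was 2 without the library term, 4 at clustering resolution 0.5, 2 at resolution 2, 4 with nuclei of at least 1000 UMIs and 3 with groups of at least 10 nuclei, where the count of 4 was 7. Cacna2d1 averaged 374 and 322 CPM over the 5 GABA groups of libraries A and B and 1494 and 1285 CPM over the 3 glutamate groups, and none of these 5 GABA groups reached a tested glutamate group. A GABA group led by Hdc, too small to be tested with 19 and 3 nuclei, stood at 1633 and 1681 CPM, above the Ebf2 and Tanc1 groups. Its log2 difference, GABA minus glutamate, was -2.20 (SE 0.09, edgeR adjusted p 1.93e-28), and it stayed between -2.42 and -1.94 with any 1 group left out. Cacna2d3 averaged 668 and 745 CPM against 326 and 345 CPM (1.35, SE 0.12, edgeR adjusted p 7.26e-14), with overlapping groups and a range of 0.51 to 1.93. Cacna1c (-0.37, SE 0.09, edgeR adjusted p 0.00162) and Cacng5 (adjusted p 0.00111) also passed with any group left out. Cacng5, a low-level AMPA receptor partner, averaged 8.17 and 23.2 CPM against 1.08 and 3.03 CPM. The calls below rested on particular groups. Scn1a (-0.50), Scn3a (-0.34) and Cacna1h no longer passed without the Vipr2 group, Cacna1h also not without the Hmcn2 group, Scn3b (0.91) without the Tanc1 group, Cacnb4 (-0.35) without the Tanc1 or the Lef1 group, and Cacna1e (0.32) without the Vipr2 or the Tanc1 group. Without the Vipr2 group 5 members were higher and 5 lower.

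**Figure D5:**
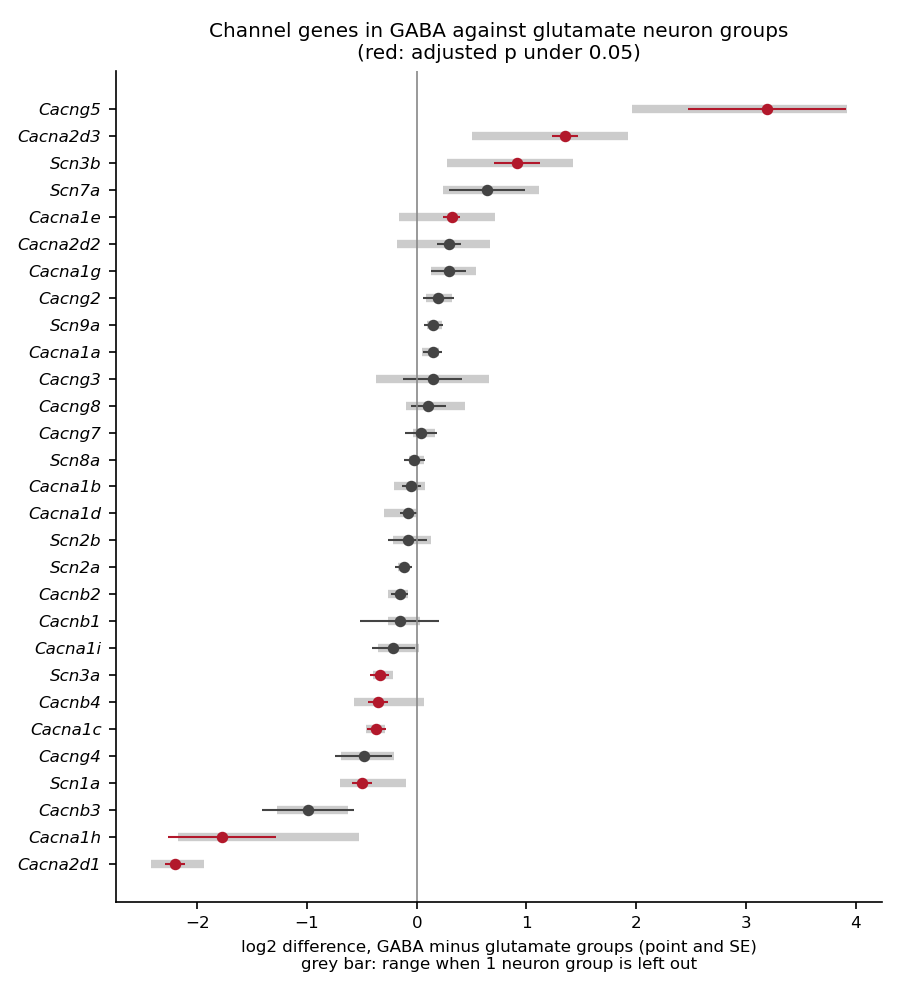
Points give the log2 difference of each member described here between GABA and glutamate neuron groups, with the SE from edgeR as a thin line and the range over fits that leave out 1 group as a grey bar; red marks an adjusted p under 0.05. Cacna2d1 stands at -2.20 with a grey bar far from 0, while the bars of Cacna1e and Cacnb4 cross 0.

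Groups with 10 to 19 nuclei in a library were added after the values were seen. The Avp group, with 23 and 19 nuclei, was called lower for 8 of 31 members and higher for 1, where 3.11% and 2.05% of 12296 tested genes were. Cacnb2 stood there at 111 and 74.4 CPM (8 and 5 UMIs), against 637 CPM or more in every group tested above (log2 difference -3.41, SE 0.31, edgeR adjusted p 4.52e-20). Cacna1d (290 and 253 CPM, -1.41, SE 0.24), Cacna1e (332 and 223 CPM, -1.46, SE 0.24) and Scn1a (83.0 and 134 CPM, -1.59, SE 0.34) were lower as well, and Cacna2d1 (982 and 1027 CPM, 0.64, SE 0.18) was higher. The Npy group, with 39 and 13 nuclei, was called lower for 4 members and higher for 2, where 2.19% and 1.85% of the same genes were. Scn8a stood there at 48.5 and 55.3 CPM from 6 and 2 UMIs, below every group tested above (-2.33, SE 0.41, edgeR adjusted p 4.54e-06). The Hcrt/Pmch group, with 51 and 10 nuclei, was called higher for 2 members and lower for 2 (1.76% and 0.952% of all tested genes). Cacna2d1 stood there at 1092 and 1146 CPM (0.84, SE 0.16, edgeR adjusted p 7.66e-05). The Sst group, with 120 and 19 nuclei, was called higher for 3 members (3.01% of all tested genes), and Cacna2d2 stood there at 225 and 232 CPM (0.94, SE 0.20, edgeR adjusted p 0.000497).

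Libraries A and B differed for some pores in neurons. Library B was above library A for 24 of the 31 tested members and by over 1.5-fold for 9, while no member was 1.5-fold lower. These counts were not made over all genes, so they cannot be called a trait of the channel genes. The 9 included Cacna1a (1.70-fold), Cacna1c (1.58-fold), Cacna1g (2.05-fold), Cacna1h (2.31-fold) and Cacna1i (1.63-fold). Cacna1a, Cacna1c and Cacna1g were higher in library B in all 10 tested groups. Between 1 library and 1 library there is no replicate and no test. Under the 2 treatment labels of the same nuclei, the total of a tested member differed by a log2 ratio of -0.18 to 0.26.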

How the data were processed

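The authors deposited single-nucleus RNA-seq as raw counts of UMIs per gene and barcode, 4 matrices from the Chromium 3′ v3.1 chemistry per the labels' protocols. Cell Ranger 5.0.1 and GRCh38 are named in the submitters' processing notes, while the gene identifiers are mouse. The mouse build and the counting of introns and strand are not given in the sources used here. Promoter windows came from RefSeq (GRCm38.p6).

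A filter of 300 genes or more and 5% mitochondrial UMIs or less removed 0 nuclei. The doublet caller marked 30 of 6158 nuclei (0.4872%), too few to count as a working filter, and these were left out. Clustering used scanpy 1.11.5 with 3000 variable genes without channel genes, 40 principal components, 20 neighbours and resolution 1. UMIs were summed per library and class, or per library and neuron group of at least 20 nuclei per library. Genes with at least 50 UMIs were tested in edgeR 4.0.16 (R 4.3.3) with the quasi-likelihood test, TMM scaling and the library as a term, each type against the average of the others, and Benjamini-Hochberg adjusted p-values called under 0.05. The library term is a pairing, since classes of 1 library come from the same tissue sample. A floor for 0 UMIs is 3 UMIs of the class total and covers counting error only. The tests were checked on simulated data.

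Every member could be named, but 2 tested members enter the counts only and are not reported here. Values were given for pore-forming subunits and for members called in a described class or group, and at most 3 genes of smallest p per direction for a partner list. Partner genes of the RGK family were below the test's minimum. Members, lists and tests were chosen with earlier results of these data known. Alternatives were RLE scaling, DESeq2 1.42.0, other count minimums, no library term, the transplanted-labelled matrices, clustering with channel genes, resolutions 0.5 and 2, doublets kept, nuclei with at least 1000 UMIs, and each library left out. Groups of 10 nuclei, a purer neuron set and left-out groups were added after seeing the data.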

Additional observations from a re-analysis of the deposited data

How the results depend on the processing

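Of 114 recomputed counts, 104 stayed within 1.5 times the reported one and 10 did not. Without the replicate block (the library term), pairs of a member and a neuron group numbered 14 higher and 9 lower, and 2 members were lower in GABA groups. With nuclei of at least 1000 UMIs there were 50 higher pairs and 4 members lower in GABA groups. With groups of at least 10 nuclei per library there were 66 higher pairs, 7 members higher and 3 lower in GABA groups. Members lower in GABA groups numbered 4 at resolution 0.5 and 2 at resolution 2. With 1 GABA or glutamate group left out, 3 to 5 members were higher and 5 to 7 lower. Scaling by RLE moved the median of all genes by -0.18 in neurons, 0.31 in microglia, -0.15 in oligodendrocytes and 0.10 in tanycytes (log2). Of the called single values, 129 of 134 still passed with that scaling, 110 with DESeq2, 97 without the block and 123 in the transplanted-labelled matrices. The direction turned for Cacna1e (2.29), Cacnb2 (0.27) and Cacna1d (0.42) in oligodendrocytes, Cacng4 in neurons (-0.55), Cacna1d (-0.25) and Scn8a (-0.078) in astrocytes and Scn8a in precursors (-0.10) with nuclei of at least 1000 UMIs. Of these turned values only that of Cacna1e in oligodendrocytes passed in edgeR (adjusted p 3.48e-15), so the others settle no direction. The cause of these turns was not tested. Without control replicate 2 the values of Cacnb1 in neurons (-0.10, against 1.25 without control replicate 1) and Scn8a in astrocytes (-0.14, against 1.42) were also below 0. Both genes had a class at 0 UMIs, so these values depend on the small count added to 0 and settle no direction. Leaving out a library leaves no test, only values, and at resolution 2 no cluster was named tanycyte. With 31855 to 274735 UMIs per library, the classes outside neurons limit what can be called in them.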
